A study of Monodelphis domestica with 2 samples.

Results

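L5PT neurons are the pyramidal tract neurons of cortical layer 5, and this report describes the nuclei that the deposited annotation placed in the subclass of that name in opossum primary visual cortex (V1; gray short-tailed opossum, Monodelphis domestica). They numbered 1206 of 32764 labelled nuclei and of 20150 labelled glutamatergic nuclei. The tissue came from 2 adult male opossums of one colony, aged 1.5 years (animal 1) and 2 years (animal 2), with no treatment or genetic change given. V1 of both hemispheres was pooled per animal, the nuclei were sorted for the DNA dye Draq5, and each suspension was loaded as 2 libraries, named 1A and 1B for animal 1 and 2A and 2B for animal 2. Animal 1 gave 582 L5PT nuclei and animal 2 gave 624. The main comparison sets the L5PT nuclei beside the other 18944 labelled glutamatergic nuclei (8503 and 10441), which fall into the intratelencephalic subclasses IT_A, IT_B, IT_C and IT_D and into L5NP (near-projecting), L6CT (corticothalamic) and L6b. Counts were summed per animal, since nuclei are not replicates. With 2 animals, age, handling and animal cannot be told apart.

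Pyramidal tract neurons are the output cells of layer 5. Their axons leave the cortex for the midbrain, brainstem and spinal cord, with branches to the thalamus and striatum, whereas intratelencephalic neurons project within the cortex and striatum. In other mammals the transcription factor FEZF2 and its partner in the same program, BCL11B (CTIP2), set this fate during development, and the mature cells are known for thick apical dendrites rich in hyperpolarization-activated (HCN) channels.

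The 4 libraries held between 55625042 and 69706055 UMIs (tags that count each captured RNA molecule once), of which L5PT nuclei contributed between 2643607 and 3316695. L5PT nuclei made up 6.51% and 6.30% of glutamatergic nuclei in libraries 1A and 1B, and 5.68% and 5.61% in 2A and 2B. No cell barcode was shared between L5PT nuclei of any pair of libraries. The files call 33 L5PT nuclei doublets (2.74%), against 497 of the other glutamatergic nuclei (2.62%).

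The annotation divides the subclass into the types L5PT_1 (782 nuclei) and L5PT_2 (424 nuclei), and their mix differed between the animals. L5PT_1 formed 80.2% and 84.2% of L5PT nuclei in libraries 1A and 1B, but 46.2% and 50.5% in 2A and 2B. The types also differed in depth. Median UMIs per nucleus were 11767 and 11419.5 in L5PT_1 (animals 1 and 2) and 3025.5 and 5881.5 in L5PT_2, beside 8012 and 8054 in the other glutamatergic nuclei. Relative to those, the median depth of L5PT nuclei was 1.34-fold in animal 1 and 1.01-fold in animal 2 (mean 1.17 ± 0.231, SD, n = 2), and for L5PT_1 alone it was 1.44 ± 0.0359. Type mix, depth and animal therefore moved together, and the main counts are also given for L5PT_1 alone.

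**Figure D1:**
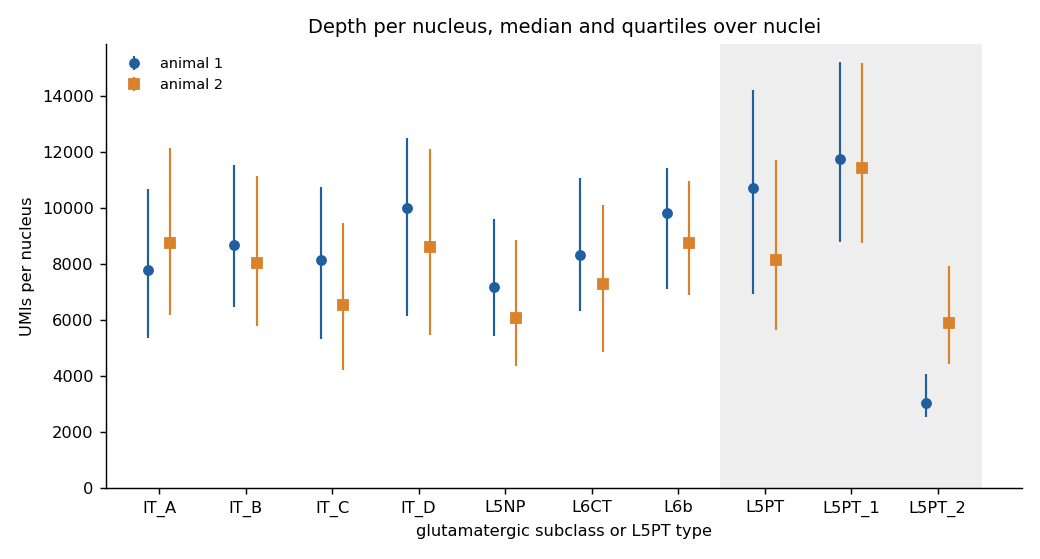
UMIs per nucleus (vertical axis) for the 7 other glutamatergic subclasses and, on grey, for L5PT and its types. Points are medians over nuclei of animal 1 (circles) and animal 2 (squares), and bars span the quartiles. The L5PT_1 medians, 11767 and 11419.5, are the highest of each animal and the L5PT_2 medians, 3025.5 and 5881.5, the lowest.

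The label was first set beside marker genes, from which the study also assigned its subclasses, so their levels partly restate the label. Levels are UMIs of the summed nuclei scaled to a common total (CPM), and the level of FEZF2 in L5PT nuclei was 31.1 and 41.4 CPM in the libraries of animal 1 (1A, 1B) and 28.4 and 36.3 in those of animal 2 (2A, 2B). The other glutamatergic nuclei stood at 11.8 and 10.51 CPM in animals 1 and 2. FEZF2 did not single out L5PT, since it stood at 40.96 and 53.3 CPM in L5NP, 26.6 and 29.2 in IT_C and 24.7 and 26.7 in L6CT, and the L5PT level was not separated from any of these 3 subclasses (edgeR adjusted p = 0.392, 0.259 and 0.083). With the animal as a block, which pairs the sums, it was higher than in IT_C (log2 fold change 0.35 ± 0.12, adjusted p = 0.0443) and L6CT (0.48 ± 0.12, adjusted p = 0.00392), and not separated from L5NP (adjusted p = 0.223). It was higher in L5PT than in IT_A, IT_B, IT_D and L6b, where FEZF2 stayed at 9.08 CPM or less. LYPD1, the other gene that marks the subclass, stood at 31.99 and 26.5 CPM in L5PT. It was higher there than in 5 subclasses, and was not separated from IT_A (30.8 and 20.99 CPM, adjusted p = 0.68) or L5NP (24.2 and 20.8 CPM, adjusted p = 0.226). With the block LYPD1 was higher than in L5NP (adjusted p = 0.0257) and not separated from IT_A (adjusted p = 0.273). Within the subclass, with each nucleus thinned to 4000 UMIs, FEZF2 stood at 31.8 and 28.2 CPM in L5PT_1 and at 111 and 40.4 in L5PT_2, on 12 and 42 UMIs in the latter. LYPD1 stood at 32.3 and 33.2 CPM in L5PT_1 and at 37.04 and 17.3 in L5PT_2, the last pair on 4 and 18 UMIs. With nuclei thinned to 1500 UMIs, which kept more of them, LYPD1 was seen in 4.61% and 5.59% of L5PT_1 nuclei and in 2.04% and 1.88% of L5PT_2 nuclei (2 of 98 and 6 of 319). L5PT_2 nuclei alone did not give the LYPD1 call against the other glutamatergic nuclei (log2 fold change -0.37, edgeR adjusted p = 0.411).

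BCL11B drew a line between the deep projection classes and the IT subclasses. It stood at 1044 and 1144 CPM in L5PT, between 886.6 and 1209 in L5NP, L6CT and L6b, and at no more than 133 in any IT subclass. Among the marker genes listed for pyramidal tract neurons, POU3F1, a POU-domain transcription factor, and LRATD2 came closest to exclusive. POU3F1 stood at 21.1, 31.4, 23.5 and 21.1 CPM in libraries 1A, 1B, 2A and 2B of L5PT, and its next highest level was 6.43 and 4.46 CPM in IT_A. LRATD2 stood at 19.2 and 14.96 CPM in L5PT, and the highest level elsewhere among glutamatergic subclasses was 2.15 CPM. L6b held 0 UMIs of both genes, but its sums were small, so that 3 UMIs would be 5.45 and 5.95 CPM. LDB2, a cofactor of LIM-domain transcription factors, stood at 2844 and 2512 CPM in L5PT and next highest at 1417 and 856 in IT_C. POU3F1, LRATD2 and LDB2 were each higher in L5PT than in all 7 subclasses.

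Of 19 marker genes listed for pyramidal tract neurons, 17 have a symbol in the files and 15 passed the low-count filter. Across all genes 7.24% were called in the comparison with the other glutamatergic nuclei (3.23% higher and 4% lower in L5PT). Of the 15 markers, 8 were higher in L5PT (FEZF2, LYPD1, BCL11B, POU3F1, LRATD2, LDB2, TOX and NPR3), and THY1 was lower, with 45.8 and 37.8 CPM against 73.5 and 64.2. CRYM, PCP4, VAT1L, SLCO2A1, ADRA1A and SPP1 did not pass the test, although with the animal as a block CRYM was lower (adjusted p = 0.00186), and PCP4, SLCO2A1 and SPP1 stayed under 1 CPM in L5PT. CHRNA6 was at 0 UMIs in L5PT nuclei of both animals, and S100A10 at no more than 0.344 CPM.

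Single nuclei held few UMIs of the low markers. After each nucleus was thinned to 1500 UMIs, FEZF2 was seen in 6.09% of L5PT nuclei of animal 1 (exact 95% interval 4.28 to 8.36) and 5.78% of animal 2 (4.08 to 7.91), against 0.17% and 0.302% of oligodendrocytes, which should lack it. Without thinning these shares were 32.3% and 24.8% in L5PT, at median depths of 10712.5 and 8142.5 UMIs, and 0.263% and 0.453% in oligodendrocytes, at 1924 and 1909 UMIs. POU3F1 was seen in 3.83% and 4.33% of thinned L5PT nuclei against 0.114% of thinned oligodendrocytes of animal 1 and 0 of 1324 in animal 2 (interval up to 0.278%). BCL11B was seen in 76.5% and 75.9% of thinned L5PT nuclei, against 3.41% and 4.76% of oligodendrocytes. These shares do not set L5PT apart from other neurons. Thinned alike, BCL11B was seen in 83.4% and 77.9% of L5NP nuclei and 46.2% and 47.5% of Pvalb interneurons. FEZF2 was seen in 5.15% and 7.36% of L5NP nuclei. Intervals cover counting error only.

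**Figure D2:**
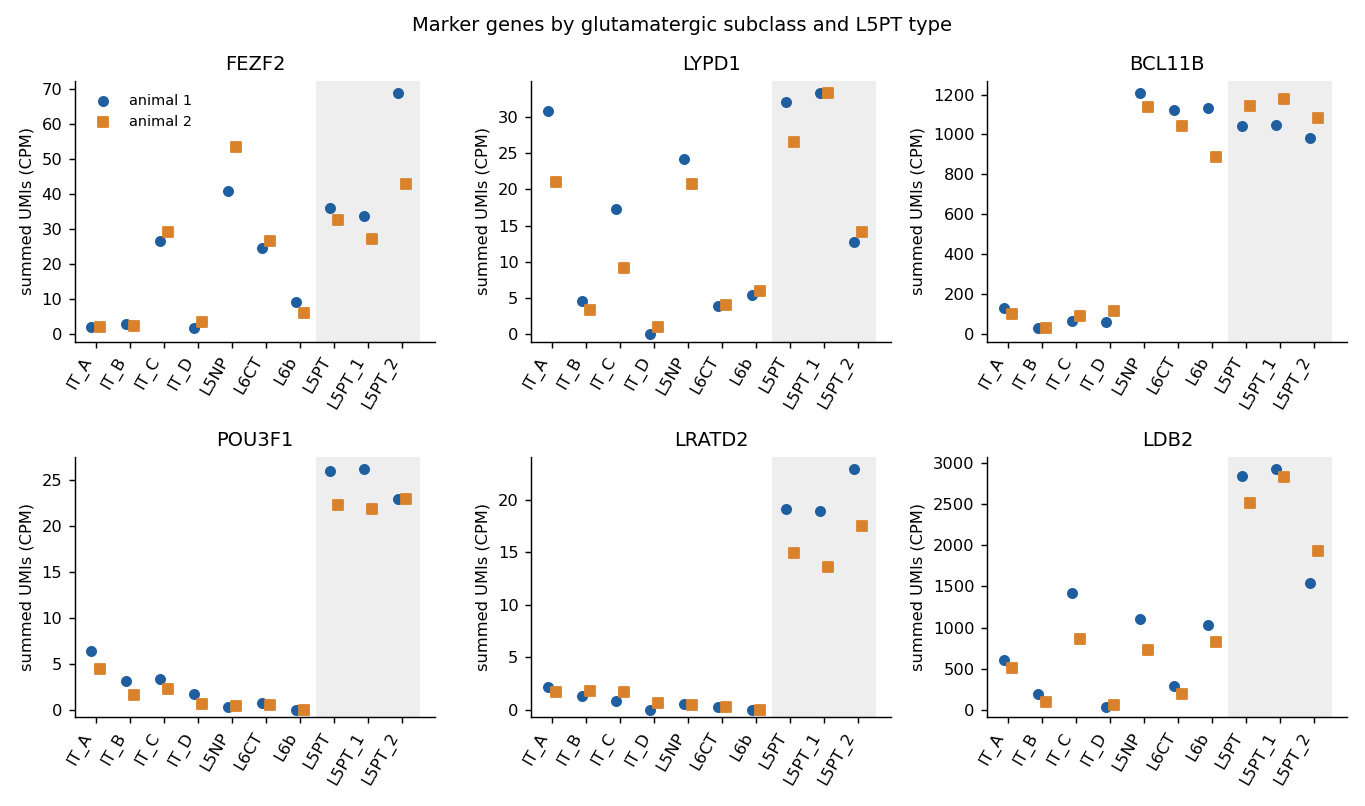
Level of 6 marker genes (vertical axes, CPM of summed nuclei) in each glutamatergic subclass and, on grey, in L5PT and its types, for animal 1 (circles) and animal 2 (squares). FEZF2 and LYPD1 reach similar levels in other subclasses and BCL11B is shared with L5NP, L6CT and L6b, while POU3F1 and LRATD2 stay at 6.43 CPM or less in the other glutamatergic subclasses.

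Marker genes of other cell types were summed in the same way. The summed level of 11 GABAergic markers was between 25.5 and 40.9 CPM in the types of L5PT and between 24.6 and 62.3 in the other 7 glutamatergic subclasses, and 1 of the 10 tested was called (LAMP5, lower). That of 7 astrocyte markers lay between 96.8 and 173 CPM, against 190.5 to 785 in the other subclasses, and 2 were called, SLC1A2 and SLC4A4, both lower in L5PT. That of 8 microglial and endothelial markers was between 7.65 and 25.3 CPM, against 10.6 to 33.7, with 0 of 4 called by edgeR, 0 at an unadjusted p under 0.05 and 0 by DESeq2. Between 1 and 7 of a list's markers were at 0 UMIs in at least 1 type and animal of L5PT. Of the 8 oligodendrocyte and precursor markers, with a summed level between 104.5 and 162 CPM against 65.1 to 153 in the other subclasses, 7 were tested and MBP was higher in L5PT, at 140 and 122 CPM against 75.1 and 74.9 (log2 fold change 0.86 ± 0.11, SE; edgeR adjusted p = 0.00677). With the animal as a block MOG (-0.79 ± 0.21) and ST18 (-0.75 ± 0.20) of that list were lower in L5PT, and the lower calls were 2 for the GABAergic and 3 for the astrocyte list. L5PT_2 nuclei alone did not give the MBP call. The part of oligodendrocyte RNA in the L5PT sums was not tested.

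Labels were also transferred between the animals. The deposited labels come from clusters of the same expression values, so the shares describe how well that grouping carries over and are not independent support for it. When each nucleus took the commonest subclass among its 15 nearest nuclei of the other animal, 575 of 582 L5PT nuclei of animal 1 received the L5PT label (98.8%, exact 95% interval 97.5 to 99.5) and 622 of 624 of animal 2 (99.68%, 98.85 to 99.96). The commonest other label was IT_A in both animals. All L5PT_2 nuclei of both animals, the shallower type, received the L5PT label, as did 98.5% and 99.3% of L5PT_1 nuclei. With every nucleus thinned to 1000 UMIs the shares of L5PT nuclei were 95.9% and 97.6%.

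Against the other glutamatergic nuclei, 1525 of 21078 genes differed, 681 higher and 844 lower in L5PT. All 1525 moved the same way in both animals, which a call from 2 sums per group nearly requires. The deposited labels were drawn from clusters of the same values, so these p-values describe a separation that the clustering itself sought. When the genes were split into 2 sets and each was tested with labels predicted from the other set and the other animal, 1483 genes were called, of which 1426 were shared with the 1525. The predictions were trained on deposited labels that drew on both gene sets and both animals. They gave between 97.1% and 99.2% of an animal's L5PT nuclei their deposited label, so the overlap is not independent support. The sums of an animal are paired, and with the animal as a block 4709 genes were called (2285 higher and 2424 lower). Against the unweighted mean of the 7 subclasses, 1677 of 17871 genes were higher and 852 lower. L5PT_1 nuclei alone gave 1679 called genes. Without the L5PT sum of animal 2, 959 genes were called, of which 897 were shared with the 1525, and the lone L5PT sum is then assumed to vary like the other nuclei.

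The genes named here reached at least 20 CPM in the higher group of both animals, and the 12 with the largest rise are known for differing roles. GADL1, a decarboxylase that makes beta-alanine, led with 523 and 522 CPM in libraries 1A and 1B and 442 and 474 in 2A and 2B, against 21.9 and 21.7 in the other glutamatergic nuclei of animals 1 and 2 (log2 fold change 4.54 ± 0.13, SE; edgeR adjusted p = 0.000102). SORCS1, a sorting receptor of the secretory pathway, stood at 1036, 1051, 1160.2 and 1064 CPM in the 4 libraries, against 49.8 and 46.9 (4.53 ± 0.13). For both genes all 4 L5PT libraries lay far above the other nuclei and the groups did not overlap. DOC2B, a calcium sensor of vesicle release, followed with 38.3 and 33.5 CPM against 2.36 and 1.70 (4.20 ± 0.19). NOX4, an NADPH oxidase, stood at 28.2 and 34.4 CPM against 1.99 and 1.69 (4.14 ± 0.20), and MID1, a microtubule-bound ubiquitin ligase, at 49.4 and 33.7 against 3.38 and 2.80 (3.80 ± 0.21). LPP, a LIM protein of cell adhesions, varied most of these 6 between the animals, with 64.8 CPM in animal 1 and 142 in animal 2, against 6.999 and 8.44 (3.79 ± 0.39).

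The remaining genes of the leading 12 include the cation channel TRPC4, with 294 and 344 CPM in L5PT against 39.1 and 25.9 (log2 fold change 3.36 ± 0.21). PEX5L, which encodes TRIP8b, the auxiliary subunit that controls where HCN channels sit, stood at 1748 and 1640 CPM against 204 and 153 (3.30 ± 0.15). The GABA-A receptor subunit gene GABRA3 stood at 23.0 and 27.7 CPM against 3.47 and 3.00 (3.02 ± 0.19). The matrix gene ADAMTSL3 (3.64 ± 0.22), the growth factor gene PDGFC (3.07 ± 0.17) and DEUP1, a centriole assembly gene (3.21 ± 0.16), complete the set. In each of these genes both animals' L5PT sums lay above both sums of the other nuclei, and the edgeR adjusted p lay between 0.000102 and 0.00281 over the 12.

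Among the genes lowest in L5PT, most were low in some other subclasses too, and only TRHDE and ADGRG2 of the 12 were lower in L5PT than in all 7. The receptor tyrosine kinase gene KIT led those with at least 20 CPM, at 0.792 and 1.55 CPM against 25.9 and 20.2 (log2 fold change -4.26 ± 0.31, SE), but its level outside came mainly from L6CT (107 and 101 CPM) and L5NP (23.3 and 24.1), and in IT_A it was 4.45 and 3.81. SYT6, a synaptotagmin, did likewise, with 2.38 and 1.55 CPM in L5PT (-4.06 ± 0.28) and 2.403 and 2.32 in IT_A, against 165.5 and 132 in L6CT. HTR2A, the serotonin 2A receptor, was lower in L5PT than in 6 subclasses. It stood at 2.06 and 2.24 CPM in L5PT, 51.3 and 40.95 in IT_A and 1.50 and 2.36 in L5NP. CUX2, a transcription factor of upper layers, and the cation channel gene TRPM3 (-3.61 ± 0.32) were lower than in 3 subclasses each (with the animal as a block, CUX2 in 5 and TRPM3 in 4). CUX2 stood at 17.1 and 33.9 CPM in L5PT and at 362 and 490 in IT_A, but at 14.5 and 13.9 in L6b. TRHDE, the ectoenzyme that degrades thyrotropin-releasing hormone, was lower in L5PT than in every other subclass (10.9 and 13.8 CPM against 219 and 184 in the other nuclei, -3.98 ± 0.17), as was the adhesion receptor gene ADGRG2 (-3.71 ± 0.30). Against the nearest subclass the log2 fold change was -1.15 ± 0.32 for TRHDE (L6CT) and -1.14 ± 0.27 for ADGRG2 (IT_C). The secreted factor gene TAFA4 (-3.89 ± 0.34), FAM163A (-4.09 ± 0.36), the zinc finger gene ZBTB7C (-3.66 ± 0.29), the proprotein convertase gene PCSK6 (-3.55 ± 0.14) and GUCY1A1, a subunit of soluble guanylate cyclase (-3.54 ± 0.16), were lower than in between 2 and 6 subclasses.

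**Figure D3:**
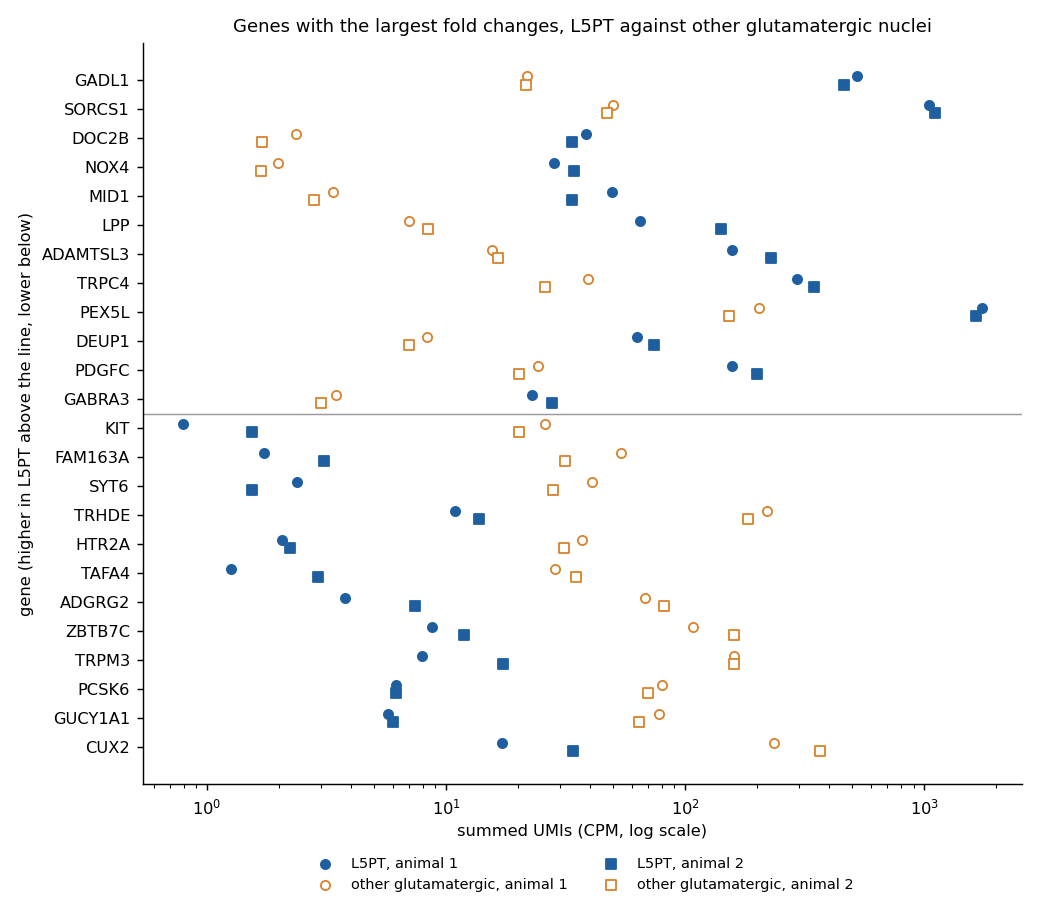
CPM of summed nuclei (horizontal axis, log scale) of the 12 genes with the largest log2 fold change in each direction, for L5PT (filled) and the other glutamatergic nuclei (open) of animal 1 (circles) and animal 2 (squares). In every gene the L5PT values of both animals lie on one side of both values of the other nuclei.

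Because IT_A holds 52.1% of the other glutamatergic nuclei, L5PT was also compared with each of the 7 subclasses in 1 fit. The contrasts called between 2024 of 17871 genes (11.3%, against L6b) and 3042 (17%, against IT_B). A total of 117 genes (0.655%) were higher in L5PT than in every other subclass and 41 (0.229%) were lower than in every one. With the animal as a block, these counts were 231 and 82, and for L5PT_1 alone they were 122 and 45. With 53 nuclei per subclass and animal, which left 8032 genes over the filter, they were 51 and 22.

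Among genes with at least 20 CPM in both animals, which leaves out LRATD2, the 6 that stood farthest above the nearest subclass were DOC2B, MID1, LPP, NOX4, MMEL1 and GADL1. DOC2B in L5PT was 3.61 ± 0.28 (SE) higher on the log2 scale than in IT_A, its nearest subclass, where it stood at 3.70 and 2.32 CPM (edgeR adjusted p = 6.85e-07). MID1 was 3.19 ± 0.27 above IT_A, LPP 2.95 ± 0.40 above IT_B and NOX4 2.65 ± 0.55 above L6b, which stood at 9.08 CPM in animal 1 and 1.98 in animal 2. MMEL1, a membrane endopeptidase, stood at 26.4 and 41.1 CPM in L5PT and 6.66 and 6.25 in IT_A. GADL1 was 2.401 ± 0.255 above IT_D, its nearest glutamatergic subclass, and outside the glutamatergic class it reached 177 and 131.5 CPM in astrocytes.

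In the other direction, 6 genes were named by the same rule. SOCS2, an inhibitor of cytokine signaling, stood at 6.33 and 4.47 CPM in L5PT and at 41.1 and 27.4 in IT_A, the lowest of the others (log2 fold change -2.62 ± 0.27, SE; edgeR adjusted p = 8.32e-06). ADAMTSL1 was at 8.87 and 8.43 CPM against 49.0 and 44.9 in IT_A. Next came SEMA5A and DCC, both of axon guidance, ST6GAL2, a sialyltransferase gene, and PCDH9, a protocadherin gene. DCC, the netrin receptor, stood at 31.0 and 31.1 CPM in L5PT and at 104 and 58.9 in IT_A, the nearest subclass. TBR1, a transcription factor of layer 6 that represses the subcerebral program in other mammals, was also lower in L5PT than in all 7, at 46.9 and 37.7 CPM against 67.8 and 63.5 in IT_A and 174 and 171 in L6CT. Of 67 genes higher than in every subclass, with a symbol and at least 20 CPM, 43 were at least 2-fold above the other glutamatergic nuclei in both types and both animals, as were 13 of the 21 lower genes in the opposite direction. These genes were chosen by their L5PT level and the types are the same nuclei, here without thinning. The counts are therefore a description and no separate support.

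The genes of each function were then read from lists. The lists were chosen with earlier results of these data known, and their counts stand beside the 7.24% called over all genes and the median log2 fold change over all genes, -0.03. All 110 list members that were called kept their call with the animal as a block and with DESeq2, but 22 lost it with nuclei thinned to 3000 UMIs, 22 without the L5PT sum of animal 1 and 34 without that of animal 2. With equal nuclei 6 lost it (NPR3, NEFL, SEMA3D, HTR4, OPRD1 and TNR), and with labels predicted from other genes 5 did, among them OXTR and TNR. L5PT_1 nuclei alone lost 5, among them NEFL, NEFH, GABRA5 and OXTR. L5PT_2 nuclei alone lost 16, and there 3 of the 110 members went in the opposite direction, against 0 in each other alternative counted. LYPD1, THY1, STMN4, KCNF1, KCNG3 and HAPLN1 were among those lost at 3000 UMIs.

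Of 35 transcription factor genes of projection neurons, 7 were higher and 8 lower in L5PT (median 0.10). The 4 largest rises were POU3F1 (log2 fold change 2.79 ± 0.20, SE), LDB2 (2.37 ± 0.16), BCL11B (1.80 ± 0.15) and FEZF2 (1.67 ± 0.13), and SOX5, which times deep-layer neuron fates, rose with them to 1297 and 1393 CPM from 665 and 619. The largest falls were those of CUX2, RORB (-2.64 ± 0.19), FOXP2 (-2.16 ± 0.17) and TLE4 (-1.36 ± 0.13), which mark upper-layer, layer 4 or layer 6 neurons. The falls of the last pair came from the deep classes. FOXP2 was lower in L5PT than in L5NP and L6CT but higher than in all 4 IT subclasses (by 0.70 to 1.63), and TLE4 was lower than in L5NP, L6CT and L6b and not separated from any IT subclass (with the block, higher than in IT_A, adjusted p = 0.00287). With the animal as a block 15 rose and 14 fell. ETV1, a factor of layer 5 neurons, stood at 36.9 and 43.5 CPM against 35.8 and 25.4 and did not pass the test (edgeR adjusted p = 0.228, and 0.0116 with the block).

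Potassium and HCN channel genes moved in both directions, with 8 of 50 higher, 10 lower and a median of 0.10 (15 and 16 with the animal as a block). PEX5L, described above, led the rises. KCNG1 and KCNG2, modifier subunits that form channels only with Kv2 partners, stood at 105 and 78.6 and at 104.5 and 70.5 CPM in L5PT, against 20.1 and 20.8 and 29.6 and 22.5 in the other nuclei. KCNK10, a leak channel of the TREK family, rose from 55.4 and 60.4 to 165 and 184.5 CPM and was higher than in all 7 subclasses. Among the falls, KCNH7, an ERG-type channel gene, stood at 181 and 155 CPM against 1788 and 1683 (-3.32 ± 0.12), and was not separated from L6b, where it stood at 171 and 165 (adjusted p = 0.616). KCNH5 (-1.81 ± 0.11), KCNF1 (-1.58 ± 0.34) and KCNG3 (-1.50 ± 0.24) followed, and KCNF1 was at 3.64 CPM or less in L5PT.

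Of 29 sodium, calcium and cation channel genes, 3 rose and 5 fell (median -0.09), and with the animal as a block 6 rose and 11 fell. Besides TRPC4, the rises were CACNA1H, a low-threshold T-type calcium channel, and SCN4B, a sodium channel beta subunit. CACNA1H stood at 101 and 136 CPM in L5PT and at no more than 28.5 in any other glutamatergic subclass (log2 fold change 2.97 ± 0.19, SE; edgeR adjusted p = 0.000586). SCN4B stood at 32.5 and 21.2 CPM against 8.84 and 8.11. The falls were TRPM3, the calcium release channels RYR1 (-2.70 ± 0.30), ITPR1 (-1.08 ± 0.12) and RYR3 (-1.05 ± 0.11), and TRPC7 (-0.89 ± 0.17). ITPR1 stood at 469 and 460.4 CPM against 983 and 1054.

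Of 32 glutamate, GABA and glycine receptor genes, 7 rose and 6 fell (median -0.09), and with the animal as a block 10 rose and 8 fell. For L5PT_2 nuclei alone 4 rose and 12 fell, beside 1212 higher and 2311 lower over all genes. GRIK2, a kainate receptor subunit, stood at 2247 and 2059 CPM against 732 in both animals of the other nuclei (log2 fold change 1.61 ± 0.11, SE) and was higher than in all 7 subclasses, as was the AMPA receptor subunit gene GRIA3 (1.15 ± 0.13). GABRA3 led the list, and GRM4, a presynaptic metabotropic receptor, came after GRIK2 (1.38 ± 0.16). GRM8 (-2.86 ± 0.17), GLRA2 (-2.79 ± 0.16), GRM3 (-1.56 ± 0.14) and GABRA5 (-0.78 ± 0.13) had the largest falls. GRM8 was low in the IT subclasses too, at 14.5 CPM or less, and reached 290 and 316 CPM in L6CT.

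Of 48 receptors for neuromodulators and peptides, 11 fell and 5 rose, with a median of -0.18 (17 lower and 11 higher with the animal as a block). VIPR1, a receptor of vasoactive intestinal peptide, had the largest fall, at 1.74 and 0.344 CPM against 25.4 and 19.3 (log2 fold change -4.33 ± 0.43, SE), and was lower than in all 7 subclasses. HTR2A, OXTR, the oxytocin receptor (-3.28 ± 0.73), and ADRA2C, an adrenergic receptor (-2.84 ± 0.35), followed, and OXTR was at no more than 4.47 CPM in either group. The rises were HTR1E (2.80 ± 0.34), NPR3 (1.93 ± 0.38), the neurotensin receptor NTSR1, the opioid receptor OPRD1 (0.98 ± 0.21) and HTR4 (0.74 ± 0.15). NTSR1 marks layer 6 corticothalamic neurons in mice. In these nuclei it stood at 273 and 231 CPM in L5PT, 292 and 222 in L6b and 229 and 220.3 in IT_D, and at 56.7 and 69.1 in L6CT, which was lower than L5PT by 2.06 ± 0.21 on the log2 scale (edgeR adjusted p = 6.28e-06).

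Genes of vesicle release changed without a common direction over the list, with 6 of 40 higher, 3 lower and a median of 0.10 (10 and 9 with the animal as a block). After DOC2B the largest rises were those of SYT2, a fast calcium sensor (log2 fold change 2.23 ± 0.24, SE), CPLX1, a complexin (1.75 ± 0.12), and STXBP6 (1.38 ± 0.11). CPLX1 stood at 171 and 180 CPM in L5PT against 52.9 and 54.9, and L5NP was close at 140 and 187. The falls were SYT6, the syntaxin gene STX1A, with 63.0 and 60.7 CPM against 154 and 159, and RIMS1, an active zone gene (-0.79 ± 0.12). STX1A was lower in L5PT than in every other subclass.

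Of 49 axon guidance genes, 6 rose and 8 fell (median 0.10), and with the animal as a block 15 rose and 18 fell. NTNG1, a membrane-bound netrin, had the largest rise, to 774 and 626 CPM from 164 and 101 (log2 fold change 2.46 with an SE of 0.22, adjusted p = 0.00152 by edgeR), and was higher than in all 7 subclasses. SEMA3D (1.84 ± 0.28), ROBO1, a Slit receptor (1.02 ± 0.16), and NEO1, a relative of DCC (0.90 ± 0.15), rose as well. ROBO1 stood at 615 and 788 CPM against 357 and 362, and was higher than in each subclass but IT_B (adjusted p = 0.0516, and 0.000935 with the block). The largest falls were those of SEMA5A (-3.35 ± 0.31), SLIT3 (-3.27 ± 0.14), DCC (-3.03 ± 0.22) and SEMA3E (-2.40 ± 0.31).

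Of 24 genes of the axonal cytoskeleton and transport, 3 rose and 0 fell by edgeR (median 0.20), with 0 falls at an unadjusted p under 0.05 and 0 by DESeq2, and with the animal as a block 10 rose and 0 fell. The 3 were the neurofilament genes NEFH, at 13.9 and 16.7 CPM against 8.12 and 7.14 (log2 fold change 1.06 ± 0.19, SE; adjusted p = 0.0229), and NEFL (0.69 ± 0.14), and STMN4, a stathmin (0.76 ± 0.16). NEFH was not separated from IT_C (adjusted p = 0.0506, and 0.00657 with the block), L5NP or L6b, and in L5NP it stood at 12.3 CPM in both animals. Of 43 genes of oxidative phosphorylation, 0 were called by edgeR, 0 by DESeq2, 1 at an unadjusted p under 0.05 and 1 with the animal as a block, and their log2 fold changes lay between -0.51 and 0.51. Of 8 perineuronal net genes tested, HAPLN4 (2.70 ± 0.23), HAPLN1 (1.78 ± 0.35) and TNR (0.66 ± 0.15) rose and PTPRZ1 (-1.29 ± 0.15) fell, and HAPLN1 stayed at 4.59 CPM or less. Of 19 activity-regulated genes, NPTX2 fell and 0 rose by edgeR (1 at an unadjusted p under 0.05 and 1 by DESeq2), and with the animal as a block 1 rose and 8 fell.

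**Figure D4:**
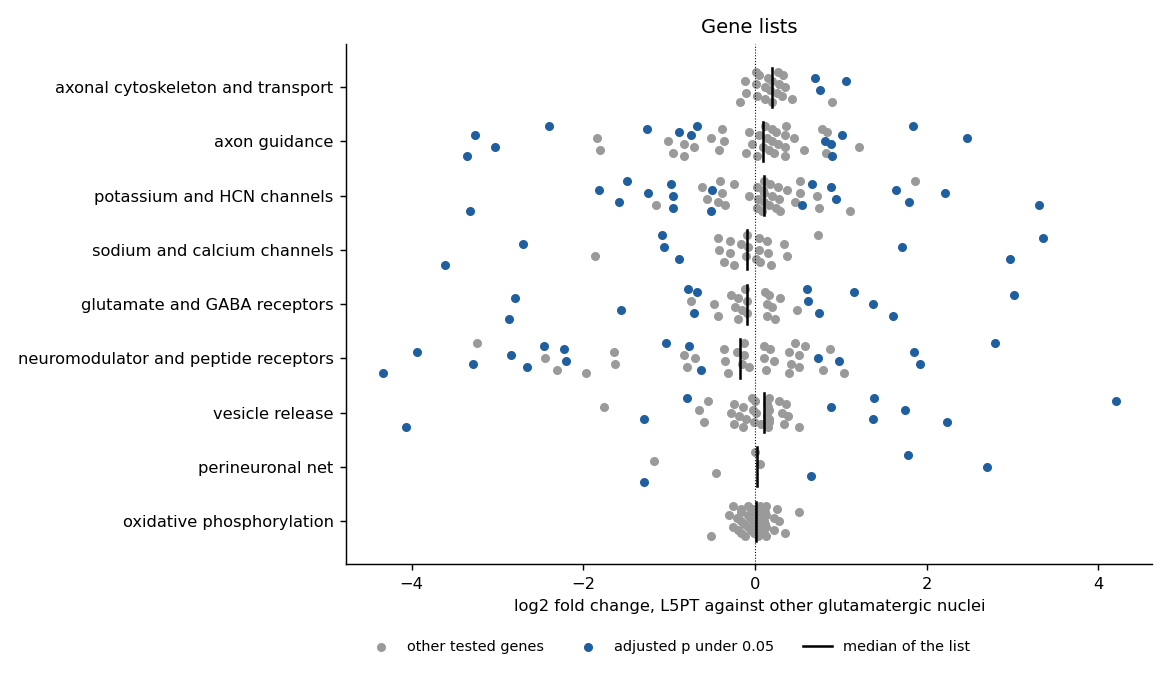
Log2 fold change of each tested list member, L5PT against the other glutamatergic nuclei (horizontal axis), with called genes in blue, other tested genes in grey and the list's median as a bar. Channel, receptor, guidance and release genes spread to both sides, while the 43 oxidative phosphorylation genes stay between -0.51 and 0.51.

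By whole profile, L5PT lay closest to IT_A. Spearman's rho of mean log-normalised expression over 3000 variable genes was 0.920 and 0.911 with IT_A in animals 1 and 2, 0.898 and 0.894 with IT_C, 0.895 and 0.890 with L6CT and 0.810 and 0.803 with L6b, the lowest in animal 2. These values are across genes, which are not independent replicates, and subclasses with few nuclei have noisier means. With 53 nuclei per subclass the range narrowed to a mean of 0.804 for IT_A and 0.752 for IT_D, the lowest.

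The L5PT types were set side by side at equal depth, as a description with no test, since they are clusters of the same values. Thinning to 4000 UMIs per nucleus kept 472 and 301 L5PT_1 nuclei in animals 1 and 2, but 27 and 260 L5PT_2 nuclei, so that the L5PT_2 sum of animal 1 held 108000 UMIs, in which 3 UMIs are 27.8 CPM. Of 5960 genes with at least 20 CPM in 1 type, 234 differed at least 2-fold the same way in both animals (3.93%), 153 higher in L5PT_1 (2.57%) and 81 higher in L5PT_2 (1.36%). Of the 153, 37 had 0 UMIs in L5PT_2 of animal 1, and with a limit of 100 CPM, chosen after seeing the data, 21 genes remained higher in L5PT_1 and 26 in L5PT_2. Of the 153 and 81 genes, 115 and 44 also differed without thinning, 111 and 41 at 2000 UMIs and 109 and 41 without the called doublets. A symbol was given for 28.1% of the genes higher in L5PT_1 and 58% of those higher in L5PT_2, against 74.9% over all genes compared.

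The genes called for L5PT were also set side by side in its types. Of 126 called genes that are named above or belong to a list, 88 reached 20 CPM in a type, and 1 of these (1.14%) differed 2-fold between the types in both animals, beside 90 of the 4466 genes with a symbol (2.02%). That gene was GABRA5, with 105 and 141 CPM in L5PT_1 and 37.0 and 58.6 in L5PT_2. GADL1 stood at 526 and 465 CPM in L5PT_1 and 583 and 494 in L5PT_2, and SORCS1 at 1010 and 1130 and at 935 and 1038. ROBO1 stood higher in L5PT_2, at 1120 and 1130 CPM against 584 and 568, and PEX5L higher in L5PT_1, at 1748 and 1900 against 1157 and 1112, both short of 2-fold in each animal.

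Named by the ratio of CPM + 1, with no order read from it, the genes higher in L5PT_1 were MAOB, MAEL, FLT1, RXRG, BCHE, GALK1, EGFR and ST8SIA2. All 8 had 0 UMIs in L5PT_2 of animal 1, so their values are given for animal 2, where MAOB, a monoamine oxidase, stood at 47.3 CPM in L5PT_1 and 6.73 in L5PT_2 (57 and 7 UMIs) and RXRG, a retinoid receptor, at 70.6 and 12.5 (85 and 13 UMIs). FLT1 is also a marker on the endothelial list, whose summed level with the microglial genes was 23.3 and 25.3 CPM in L5PT_1 and 7.65 and 10.2 in L5PT_2, and its part in the difference was not tested. Those named for L5PT_2 were USH1C, DTX4, PCDHB1, CXXC5, MAP3K10, SPDL1, ING5 and CORO1A. CXXC5 stood at 102 and 59.6 CPM in L5PT_2 and 20.7 and 24.9 in L5PT_1 (11 and 62 UMIs in L5PT_2). At 100 CPM or more, chosen after their values were seen, DPYD, PCDH17 and ATP10A were higher in L5PT_1, and the Golgi genes GOLGB1 and GOLGA4, the spectrin-repeat gene SYNE1, the cytolinker gene PLEC and DYNC1H1, the heavy chain of dynein, in L5PT_2. SYNE1 stood at 2074 and 2114 CPM in L5PT_2 against 941 and 961, which made it the best counted of the set, with 224 UMIs in the smallest sum. GOLGB1 stood at 278 and 439 CPM in L5PT_2 against 128 and 144.5.

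Both sets of genes were also compared between the shallowest and the deepest nuclei of a subclass, ranked by depth into equal groups and thinned to the same 4000 UMIs. The difference is shallowest minus deepest on the log2 (CPM + 1) scale, and its median over all genes compared lay between -0.01 and 0.01. For the 81 genes higher in L5PT_2, the median in animals 1 and 2 was 0.42 and 0.37 in IT_A, 0.25 and 0.70 in IT_C, 0.09 and 0.45 in L6CT, and -0.01 and -0.10 within L5PT_1. For the 153 genes higher in L5PT_1, it was 0.20 and 0.25 in IT_A, 0.40 and -0.67 in IT_C, 0.32 and -0.03 in L6CT, and 0.62 and 0.38 within L5PT_1. The part of depth in the difference between the types was not tested.

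**Figure D5:**
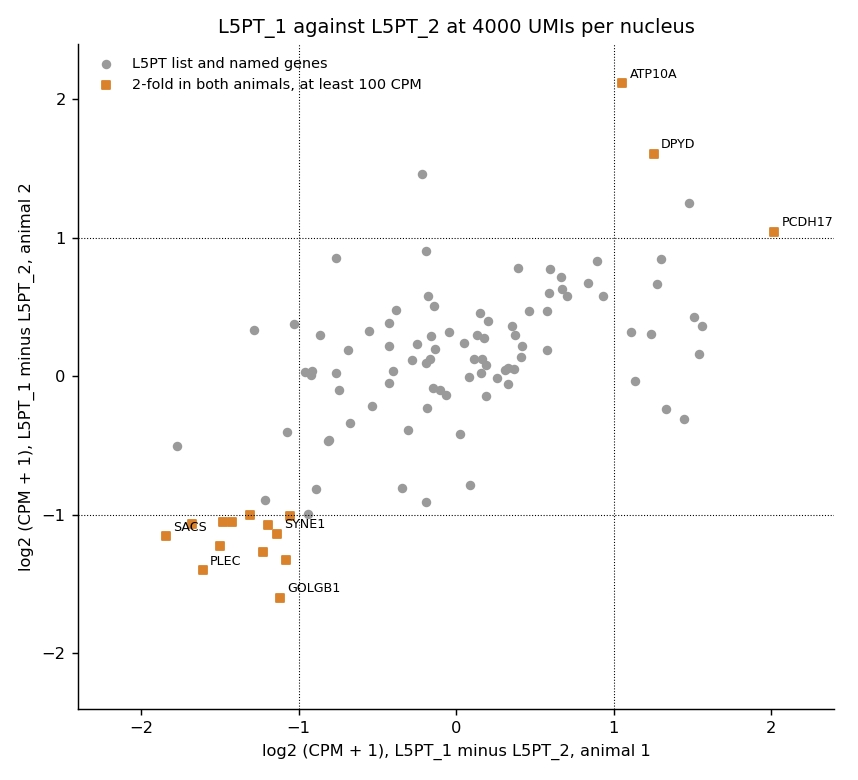
Difference between L5PT_1 and L5PT_2 on the log2 (CPM + 1) scale at 4000 UMIs per nucleus, in animal 1 (horizontal axis) and animal 2 (vertical axis). Grey circles are the 88 called list and named genes that reached 20 CPM, orange squares 16 further genes with a symbol, at least 100 CPM and a 2-fold difference in both animals, and dotted lines mark 2-fold. Of the grey points, 1 (GABRA5) lies beyond the same 2-fold line in both animals.

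Between the animals, 88 of 6283 genes (1.4%) differed at least 2-fold in L5PT with no overlap of libraries, 71 higher in animal 1 and 17 higher in animal 2. This is a description of 1 animal beside 1 animal. Between the single libraries of an animal, by fold and level alone, 3 genes differed 2-fold in animal 1 and 1 in animal 2. Those counts compare smaller sums and have no overlap condition, so they are not on equal terms with the 88. Of the 71 genes higher in animal 1, 30 were among the 153 genes higher in L5PT_1 and 0 among the 81 higher in L5PT_2. Of the 17 higher in animal 2, 0 and 1 were in these sets, which held 2.57% and 1.36% of all genes compared between the types. All these sets come from the same nuclei, and animal 1 held more L5PT_1 nuclei. The part of the type mix was not tested. For L5PT_1 nuclei alone 39 genes were higher in animal 1 and 20 in animal 2. In as many other glutamatergic nuclei the counts were 41 and 16.

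ESR1, the estrogen receptor alpha, had the largest ratio among genes higher in animal 2. It stood at 5.73 and 6.34 CPM in libraries 1A and 1B and at 22.7 and 23.0 in 2A and 2B, and the ratio of CPM + 1 was 3.4. The other glutamatergic nuclei stood at 4.34 CPM in animal 1 and 4.06 in animal 2, and L5PT_1 alone at 6.25 and 26.1. Whether the difference between the animals differs between L5PT and the other nuclei was not tested. DPT, USP11 and LAMA5 followed, with 9.66 against 29.2, 9.82 against 25.4 and 12.2 against 31.0 CPM in animals 1 and 2. In L5PT_1 alone DPT stood at 9.96 against 33.5 CPM, while USP11 (8.44 against 14.6) and LAMA5 (12.5 against 21.3) were short of 2-fold. Higher in animal 1 were COL4A2, a basement membrane collagen, at 25.6 and 26.01 CPM in its libraries against 3.78 and 5.99, ACADL and DPEP1, with 21.9 against 5.85 and 23.1 against 6.54, and STK3, with 29.6 against 8.94. In L5PT_1 alone these 4 stood at 26.5 against 5.59, 21.3 against 6.92, 23.8 against 8.25 and 31.2 against 10.9 CPM. In the other glutamatergic nuclei, the 4 genes higher in animal 1 stood in the same order, with ACADL at 11.3 against 2.39 CPM, DPEP1 at 19.97 against 6.72, STK3 at 45.9 against 22.2 and COL4A2 at 35.3 against 24.3. DPT (4.25 against 11.2), LAMA5 (6.78 against 11.7) and USP11 (10.3 against 17.04) were there too higher in animal 2.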

How the data were processed

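Nuclei of V1 from 2 opossums were profiled by 10x 3′ v3 single-nucleus RNA-seq in 4 libraries. The deposited matrices hold UMI counts per gene and nucleus, not normalized, which the authors made with Cell Ranger (6.1.1 in the processing notes), with intronic reads included. The deposited doublet scores (a fraction) come from the authors' run of Scrublet and were used only through the doublet calls. Quality filters, clustering and the subclass and type labels are the authors'. Counts were made for 30800 genes, of which 11590 carry a symbol.

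From these files, the counts of labelled nuclei were summed per subclass and animal. Sums were compared with edgeR 4.0.16 in R 4.3.3 (TMM, filterByExpr, quasi-likelihood test, Benjamini-Hochberg adjusted p under 0.05), first L5PT against the other glutamatergic nuclei and then against each of 7 subclasses, and with DESeq2 1.42.0 as an alternative. Every p rests on 2 animals per group, and libraries of an animal are technical. Sums of 1 animal are paired by that animal: deviations from the group means correlated at 0.372 between L5PT and the rest over 21078 genes and between 0.0749 (L6b) and 0.478 (IT_A) with the subclasses. Types and animals were compared by ratios of CPM + 1 with no test, a gene counting at 20 CPM or more and 2-fold the same way throughout. Labels were transferred between animals with 30 components of 3000 variable genes and 15 neighbours. Neighbours came from scikit-learn 1.9.0 and intervals from scipy 1.17.1, in Python 3.11.15 with matplotlib 3.10.9 for figures and pandas 2.3.3 and numpy 2.4.6 for tables. Intervals are exact (Clopper-Pearson, 95%).

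On simulated counts for L5PT against the other nuclei, 76 of 100 genes changed 2-fold and 100 of 100 changed 4-fold were recovered among 20586 genes, with 13 false calls. For the comparison with each subclass 19 of 100 and 93 of 100 were recovered among 16823 genes, with 0 false calls. These counts hold for the level and spread that were simulated, and do not measure recovery or false calls in the real sums. Recovery was not given by level, so it cannot be read for genes at low CPM.

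Named genes had a symbol, passed the test, moved the same way in both animals and reached 20 CPM (the 12 largest fold changes in each direction and the 6 farthest from the nearest subclass). List members were named with no minimum level, up to 4 that passed in each direction, as were the pyramidal tract markers. Between types and between animals, which had no test, the 8 and 4 largest ratios were named. SOX5, ETV1, TBR1, TRPC7, HTR4, and PEX5L and ROBO1 between the types, were named after their values were seen. The L5PT nuclei and the lists were chosen with earlier results of these data known. Alternatives covered normalization, filters, depth, equal nuclei, doublets, the animal block, left-out animals and labels predicted from other genes, and 6 more were chosen after seeing the data. No sequence or coordinate is given. Some list members are not reported here.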

Additional observations from a re-analysis of the deposited data

Results flagged for a closer look

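The authors' quality limits remove nuclei with many genes or UMIs. Of 53 nuclei that failed quality and held at least 6500 genes or 40000 UMIs, 46 received a glutamatergic label from their nearest neighbours, and 10 of these received L5PT (21.7%, exact 95% interval 10.9 to 36.4) and 16 IT_A, beside a mean L5PT share of 6.02% among labelled glutamatergic nuclei. L5PT_1 had the highest median depth of the glutamatergic groups in both animals, and the part of depth was not tested. The 10 were spread as 3 and 0 in the libraries of animal 1 and 6 and 1 in those of animal 2. They came up because they lie in data that no comparison here used. The files give no doublet score for them, so the part of doublets was not tested.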

How the results depend on the processing

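The 24 genes named for the comparison with the other glutamatergic nuclei kept their direction in all 240 values under the alternatives run, and their call in the 192 that carry a test (the values of a single animal do not). The count of 1525 changed genes became 4709 with the animal as a block, which kept all 1525 and every call of a named gene or list member, and 2529 against the mean of 7 subclasses. Leaving out a sum gave 959 to 1601 genes, with 959 without L5PT of animal 2. L5PT_2 alone, chosen after seeing the data, gave 3523 (1212 higher and 2311 lower). The 117 genes higher than in every subclass became 231 with the block, 51 with equal nuclei and 218 for L5PT_2 alone. The 41 lower than in every subclass became 82, 22 and 194 in the same order. The 234 genes that differed between the types became 355 at 2000 UMIs, 383 at 10 CPM, 101 at 50 CPM and 47 at 100 CPM, and 504 to 1838 from 1 animal alone (504 without animal 1, 1838 without animal 2). The relative depth became 1.44 for L5PT_1 alone. The mean rho with IT_A became 0.892 with 1000 genes and 0.804 with equal nuclei. The share of labels recovered became 95.1% with 10 components and 96.7% at 1000 UMIs. The 88 genes that differed between animals became 179 at 10 CPM and 39 at 50 CPM. The cause of these shifts was not tested. Each comparison rests on 2 animals, and that of the types on 27 L5PT_2 nuclei in animal 1.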
